A study of Mus musculus with 33 samples.

Results

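The results concern 3 genes, Myc, Srm and Atic, in mouse spleen cells cultured with CpG oligodeoxynucleotides (ODN). They were taken as every probe that the platform annotation pairs with 1 of these symbols, which gave 3 probes, 1 per gene, of 16720 on the array (and 3 of the 9672 genes with a value). Spleen cells of female BALB/c mice aged 2 months were cultured with an equimolar mix of CpG ODN 1555 and 1466 at 1 uM, with a mix of ODN 1612 and 1471 at 1 uM that lacks CpG motifs (control ODN), or in medium alone. RNA was taken after 2, 4 or 8 h, with 33 arrays in all, 4 for each treatment at the first pair of times and 3 at the last. On each array Cy5-labelled spleen cell cDNA was set against Cy3-labelled Universal Mouse Reference RNA, a commercial pool, and the series' description gives the arrays of a group as independent experiments. Values are log2 ratios of spleen cells over this reference, centred on each array's median. Base 2 was read from the range of the values, since the base is not stated, and a ratio of a gene says nothing of its level against that of another gene.

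CpG ODN carry unmethylated CpG dinucleotides that are sensed by Toll-like receptor 9 of B cells and dendritic cells. Myc encodes the transcription factor MYC, which pairs with MAX, binds the E-box sequence CACGTG and is known to raise genes of cell growth when lymphocytes leave rest. Srm encodes spermidine synthase, which makes the polyamine spermidine from putrescine, and Atic encodes the bifunctional enzyme of the last steps of de novo purine synthesis. Both are textbook MYC targets, and the 3 times allow the order in which the regulator and the enzymes changed to be described.

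The number of measured probes per array lay between 7908 and 11129. Myc was measured on 33 arrays, Srm on 29 and Atic on 32. The Srm value was missing on control ODN repeat 4 at 2 h, control ODN repeats 1 and 3 at 4 h and medium repeat 2 at 8 h, and the Atic value on CpG ODN repeat 3 at 4 h. The fits left those arrays out for that gene and replaced no value. A difference counted as called where its adjusted p in a limma fit over all genes tested was below 0.05 (Benjamini-Hochberg adjustment, at least 2 measured arrays in each compared group), and errors beside differences are standard errors (SE) of that fit. The comparisons with the control ODN and with medium share the CpG ODN arrays, so one does not repeat the other.

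Myc stood higher with CpG ODN at 4 h and 8 h, and of the 3 genes it was the only one called before 8 h. At 2 h the Myc log2 ratio was 0.53, 0.80, 0.78 and 1.33 on the CpG ODN arrays, 0.31, 0.11, 0.94 and 0.49 with control ODN, and 0.76, 0.12, 0.64 and 0.57 in medium. The groups overlapped at that time. At 4 h the Myc ratio was 1.09, 0.93, 2.06 and 1.65 with CpG ODN, 0.04, 0.00, 0.02 and 0.78 with control ODN, and 0.61, 0.02, 0.34 and 0.77 in medium. At 8 h it was 1.48, 1.84 and 1.57 with CpG ODN, 0.41, 0.05 and -0.27 with control ODN, and 0.10, 0.34 and -0.27 in medium. At both later times every CpG ODN array lay above every array of either control, and 3 of the 4 control ODN arrays at 4 h sat together near 0 with the fourth apart.

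The Myc difference from control ODN was 0.39 ± 0.25 at 2 h (adjusted p = 1), 1.22 ± 0.25 at 4 h (adjusted p = 0.0115, limma) and 1.56 ± 0.29 at 8 h (adjusted p = 3.53e-04, limma), the last a 2.95-fold difference. In these comparisons 0.0430%, 0.384% and 10.0% of all genes tested were called, and every CpG ODN array lay above every control ODN array for 2.27%, 2.22% and 10.8% of genes. Thus a call at 4 h was shared with few genes (37 of 9630, all higher), and a call at 8 h with many (949 of 9494). Against medium the Myc difference was 0.34 ± 0.25 at 2 h, 1.00 ± 0.25 at 4 h and 1.57 ± 0.29 at 8 h. Only the last of these was called (adjusted p = 0.929, 0.108 and 2.79e-04, limma), where 0.0420%, 0.218% and 11.8% of genes were called and 3.70%, 1.89% and 10.4% had every CpG ODN array above every medium array. The 4 h call against control ODN was lost when any 1 of 5 arrays was left out (CpG ODN repeats 3 and 4, control ODN repeats 1, 2 and 3; highest adjusted p = 0.100) and when the 2 groups were fitted alone (adjusted p = 0.304), while the difference itself stayed between 1.01 and 1.41 with 1 array left out.

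**Figure D1:**
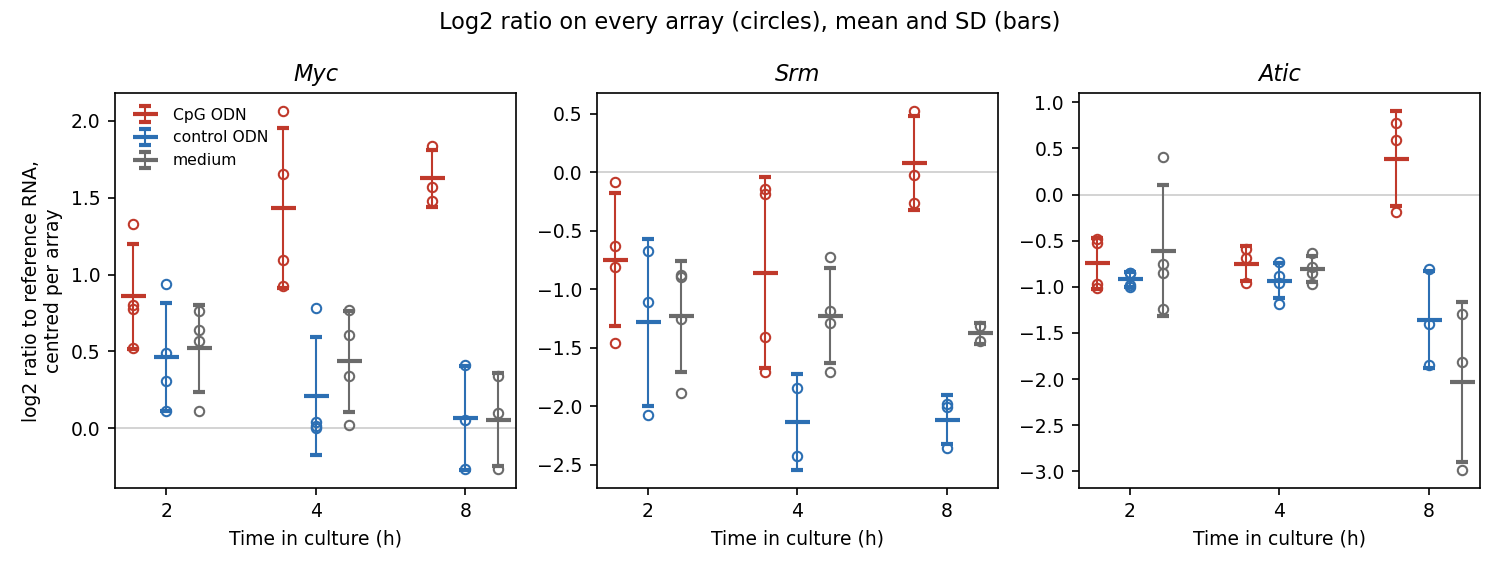
Log2 ratio to the reference RNA (vertical axis, centred per array, each gene with its own scale) of Myc, Srm and Atic at 2, 4 and 8 h (horizontal axis) for CpG ODN (red), control ODN (blue) and medium (grey); circles are arrays, bars the mean and SD. Myc with CpG ODN lies above both controls at 4 h and 8 h, whereas Atic with CpG ODN lies among the controls until 8 h, when its mean is 0.39 against -1.35 with control ODN.

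Srm was called higher with CpG ODN at 8 h against either control, while at 4 h the 2 controls gave different values. At 2 h the Srm log2 ratio was -0.81, -1.46, -0.08 and -0.63 with CpG ODN, -0.67, -2.07 and -1.11 on the 3 measured control ODN arrays, and -0.88, -1.89, -1.26 and -0.90 in medium. At 4 h it was -1.41, -1.71, -0.18 and -0.14 with CpG ODN, -2.42 and -1.85 on the 2 measured control ODN arrays, and -0.72, -1.70, -1.18 and -1.29 in medium. The CpG ODN arrays at 4 h thus fell into a lower and a higher pair, and every medium array lay inside their range. At 8 h Srm was -0.26, -0.02 and 0.52 with CpG ODN, -2.01, -2.36 and -1.98 with control ODN, and -1.44 and -1.31 on the 2 measured medium arrays. By then every CpG ODN array lay above every array of both controls.

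The Srm difference from control ODN was 0.54 ± 0.38 at 2 h (4 arrays against 3, adjusted p = 1), 1.28 ± 0.43 at 4 h (4 against 2, adjusted p = 0.708, limma) and 2.20 ± 0.41 at 8 h (3 against 3, adjusted p = 5.56e-04, limma), a 4.59-fold difference at 8 h. Against medium it was 0.48 ± 0.35 at 2 h, 0.37 ± 0.35 at 4 h and 1.46 ± 0.46 at 8 h (3 against 2, adjusted p = 0.0358, limma). The call against medium was lost without CpG ODN repeat 2 or repeat 3 (adjusted p = 0.0701 and 0.124). Srm had the widest spread of the 3 genes, with a residual SD of 0.54 on the log2 scale against 0.35 for Myc, 0.44 for Atic and a median of 0.35 over all genes. At 4 h the 95% interval of the Srm difference ran from 0.39 to 2.16 against control ODN and from -0.36 to 1.09 against medium.

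Atic, like Srm, was first called at 8 h. At 2 h the Atic log2 ratio was -1.01, -0.97, -0.48 and -0.53 with CpG ODN, -1.0, -0.98, -0.85 and -0.85 with control ODN, and -1.24, 0.41, -0.85 and -0.75 in medium, with medium repeat 2 far above the rest. At 4 h it was -0.69, -0.60 and -0.96 on the 3 measured CpG ODN arrays, -0.88, -1.18, -0.96 and -0.73 with control ODN, and -0.97, -0.85, -0.64 and -0.79 in medium, all within a narrow band. At 8 h it was -0.19, 0.77 and 0.59 with CpG ODN, -1.41, -1.85 and -0.81 with control ODN, and -1.30, -2.98 and -1.81 in medium. Only at 8 h did the groups part, with every CpG ODN array above every control array.

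The Atic difference from control ODN was 0.17 ± 0.30 at 2 h and 0.19 ± 0.33 at 4 h (adjusted p = 1 at both), with a 95% interval from -0.48 to 0.85 at 4 h, and 1.74 ± 0.35 at 8 h (adjusted p = 9.75e-04, limma), a 3.35-fold difference. Against medium it was -0.14 ± 0.30, 0.06 ± 0.33 and 2.42 ± 0.35, the last called (adjusted p = 1.14e-05, limma; 5.35-fold). Both 8 h calls of Atic held without each array in turn, as did those of Myc and the Srm call against control ODN.

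The E-box was looked for in the 250 bases before each gene's start in RefSeq's promoter table (GRCm38.p6), with CACGTG, its own reverse complement, as the only motif. Of the 3 genes 1 matched an entry, Atic, and it is shown with Ppat and Paics, which encode the first and a middle enzyme of the same pathway (Paics chosen after its value was seen). The 3 windows, 5′ to 3′ on the gene's strand with the motif in capitals, are chr1:71556906-71557155 (plus strand, Atic), chr5:76951052-76951301 (plus strand, Paics) and chr5:76951579-76951828 (minus strand, Ppat).
Atic: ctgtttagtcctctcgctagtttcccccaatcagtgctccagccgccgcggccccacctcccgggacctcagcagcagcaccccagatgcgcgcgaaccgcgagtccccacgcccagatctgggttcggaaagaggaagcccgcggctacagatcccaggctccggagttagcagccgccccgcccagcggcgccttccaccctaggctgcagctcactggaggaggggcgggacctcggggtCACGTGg
Paics: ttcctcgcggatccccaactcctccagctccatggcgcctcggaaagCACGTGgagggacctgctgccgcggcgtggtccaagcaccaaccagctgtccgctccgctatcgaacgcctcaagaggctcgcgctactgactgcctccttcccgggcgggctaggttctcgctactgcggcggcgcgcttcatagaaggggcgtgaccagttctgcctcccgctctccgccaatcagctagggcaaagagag
Ppat: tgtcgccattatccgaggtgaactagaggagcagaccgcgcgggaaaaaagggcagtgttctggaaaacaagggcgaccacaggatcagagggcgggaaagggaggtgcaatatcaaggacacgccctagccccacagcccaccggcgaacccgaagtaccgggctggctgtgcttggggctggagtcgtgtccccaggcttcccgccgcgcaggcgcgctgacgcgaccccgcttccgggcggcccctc
The motif of Atic covers bases 7 to 2 before the start and that of Paics bases 203 to 198, and the Ppat window holds none. Among 32851 windows of this length 6.02% held the motif. Paics, with the motif, was not called at 8 h (0.51 ± 0.31 against control ODN, adjusted p = 0.352, limma), and Ppat, without it, was higher by 0.99 ± 0.17 (adjusted p = 1.84e-04). By their coordinates Paics and Ppat start close together at the same locus on opposite strands. The Paics motif lies downstream of the Ppat start, outside the Ppat window. The pair is therefore no comparison of separate promoters with and without the motif, and nothing is read from it. A match of letters is a description and does not show binding.

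**Figure D2:**
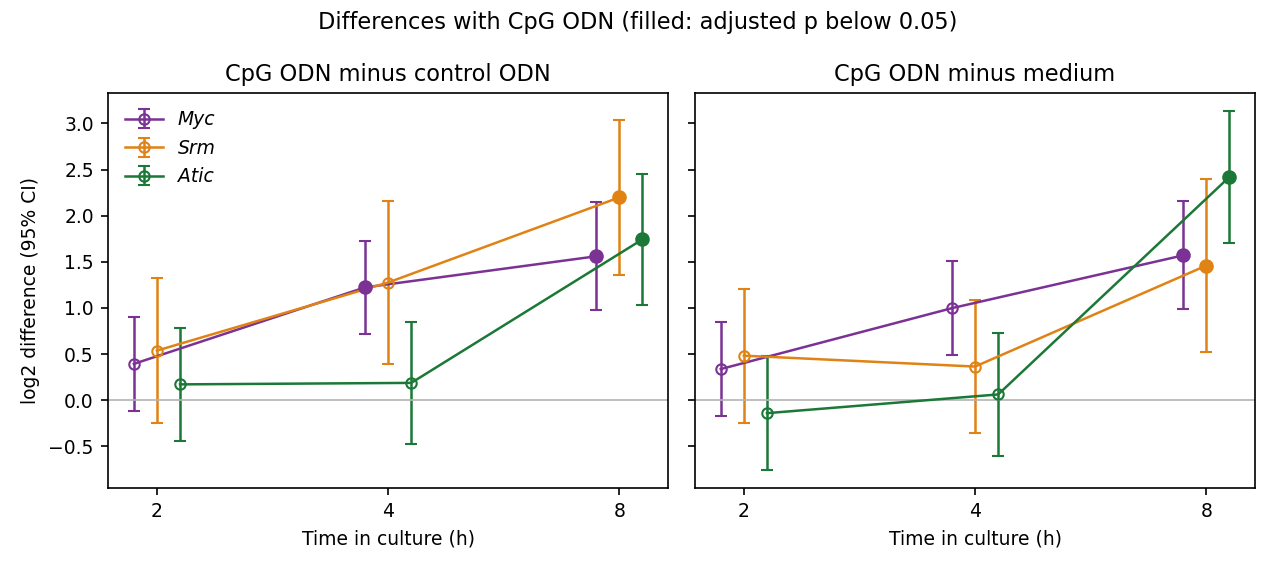
Log2 difference with its 95% confidence interval (vertical axis) of CpG ODN minus control ODN (left) and minus medium (right) for Myc (purple), Srm (orange) and Atic (green) by hours in culture (horizontal axis); filled points have an adjusted p below 0.05. Against control ODN Myc is filled at 4 h (1.22) and 8 h (1.56), and Srm and Atic at 8 h alone (2.20 and 1.74); Atic is at 0.19 at 4 h.

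The Atic ratio moved in medium as well as with CpG ODN. With CpG ODN the Atic ratio rose by 1.14 ± 0.33 from 2 h to 8 h (adjusted p = 0.0148, limma) and by 1.14 ± 0.35 from 4 h to 8 h (adjusted p = 0.0386). Both calls were lost without CpG ODN repeat 2 or 3 at 8 h (highest adjusted p = 0.0870 and 0.172) and without the 4 arrays whose database numbers in the labels lie below 70000 (adjusted p = 0.0590 and 0.0594). The second was also lost without each of the 3 measured arrays at 4 h and with the groups fitted alone (adjusted p = 0.0544). In medium it fell by 1.42 ± 0.33 from 2 h to 8 h (adjusted p = 0.00348). The change in medium from 4 h to 8 h was -1.22 ± 0.33 (adjusted p = 0.0633), and with control ODN the change from 2 h to 8 h was -0.43 ± 0.33 (adjusted p = 0.468). The call in medium was lost without repeat 2 at 8 h, its lowest array (-0.95, adjusted p = 0.0577), and when the groups compared were fitted alone (adjusted p = 0.119).

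Myc rose with CpG ODN by 0.77 ± 0.27 from 2 h to 8 h (adjusted p = 0.0464, limma), a call that held in 1 of the 7 fits with 1 array left out, that without CpG ODN repeat 4 at 2 h, and not after quantile normalization (0.58, adjusted p = 0.202) or without those 4 arrays (adjusted p = 0.134). Its changes from 2 h to 4 h, 0.58 ± 0.25, and from 4 h to 8 h, 0.19 ± 0.27, were not called (adjusted p = 0.368 and 0.765). In the controls the mean Myc ratio was lower at 8 h than at 2 h, with differences of -0.40 ± 0.27 for control ODN and -0.46 ± 0.27 for medium that were not called (adjusted p = 0.409 and 0.277). Srm changed with CpG ODN by 0.83 ± 0.38 from 2 h to 8 h and by 0.94 ± 0.38 from 4 h to 8 h, neither called (adjusted p = 0.144 for both), and by -0.83 ± 0.41 with control ODN from 2 h to 8 h (adjusted p = 0.219). Of all genes tested, 0.966%, 8.22% and 16.6% were called with CpG ODN from 2 h to 4 h, 4 h to 8 h and 2 h to 8 h, against 1.30%, 2.53% and 10.1% with control ODN and 1.58%, 0.731% and 14.6% in medium. Many genes thus changed by 8 h in the controls too.

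Whether the difference between CpG ODN and control ODN grew with time was tested directly. With all arrays at equal weight in the model of all 9 groups, and the repeat number left out, none of the 3 genes was called. From 2 h to 8 h it grew by 1.57 ± 0.46 for Atic (adjusted p = 0.0562, limma), by 1.17 ± 0.38 for Myc (adjusted p = 0.0955) and by 1.66 ± 0.56 for Srm (adjusted p = 0.117). From 4 h to 8 h the growth was 1.55 ± 0.48 for Atic (adjusted p = 0.0944), 0.92 ± 0.59 for Srm (adjusted p = 0.653) and 0.34 ± 0.38 for Myc (adjusted p = 0.875). From 2 h to 4 h it was 0.83 ± 0.35 for Myc, 0.74 ± 0.58 for Srm and 0.02 ± 0.44 for Atic (adjusted p = 1 for each). Over all genes 3.26%, 2.08% and 0.0108% were called in these 3 tests. In these estimates most of the Myc growth lay before 4 h and nearly all of the Atic growth after it. This order is a description of the estimates. Some of these tests were called under other settings. With array weights the growth from 2 h to 8 h was called for Atic (1.66, adjusted p = 0.00587) and Myc (1.28, adjusted p = 0.0213), and that from 4 h to 8 h for Atic (1.82, adjusted p = 0.00297). With the groups fitted alone the Atic growth from 2 h to 8 h was called (adjusted p = 0.0385). Growth over that span was called for all 3 genes once arrays of the same time were blocked by repeat number. The adjusted p was 0.0296 for Myc (1.17), 0.0159 for Srm (1.74) and 0.0483 for Atic (1.57). A block spanning the times gave a call for Srm alone (adjusted p = 0.0135). Labels do not tie these numbers to a shared experiment. Arrays sharing number and time had a median correlation of 0.361 (range -0.412 to 0.736). Both Atic tests were called without control ODN repeat 3 at 8 h (adjusted p = 0.0267 from 2 h and 0.0462 from 4 h) or CpG ODN repeat 1 at 8 h (adjusted p = 0.0205 and 0.0392). The Srm growth from 2 h to 8 h was called without control ODN repeat 2 at 2 h (2.06, adjusted p = 0.0380).

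A lag between 2 genes was also looked for as the difference of their ratios on 1 array. It was compared between CpG ODN and control ODN by a two-sided exact permutation test, 9 tests in all. The arrays were too few for any of the 9 to reach an adjusted p below 0.05, even with every test at its smallest possible p. The same held for the 9 tests against medium. The lack of a call in these tests therefore does not decide whether there was a lag. At 4 h Atic minus Myc was -1.78, -1.52 and -2.61 with CpG ODN and -0.92, -1.18, -0.97 and -1.51 with control ODN, groups that lay side by side without overlap. Their means differed by -0.82 (exact permutation p = 0.0571, the smallest that 3 against 4 arrays allow; adjusted p = 0.514). With 1 array left out the difference lay between -1.05 and -0.50, the smallest without CpG ODN repeat 4. Against the medium arrays, -1.58, -0.88, -0.97 and -1.55, the difference was -0.72 and the groups overlapped (exact permutation p = 0.171, adjusted p = 0.770 over its own 9 tests).

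For Srm minus Myc at 4 h the answer turned with the control. The difference was 0.24 against the 2 measured control ODN arrays (exact permutation p = 0.667, smallest possible 0.133). Against the 4 medium arrays it was -0.63 (exact permutation p = 0.0571, adjusted p = 0.514). Srm minus Atic at 4 h also parted without overlap, by 0.84 on 3 arrays against 2. Its exact permutation p was 0.2, the smallest possible (adjusted p = 0.617). Against medium it differed by 0.075 and the groups overlapped (exact permutation p = 0.914). At 8 h the 3 pairs of genes differed between CpG ODN and control ODN by 0.64 for Srm minus Myc, 0.18 for Atic minus Myc and 0.45 for Srm minus Atic, where 3 against 3 arrays cannot give a p below 0.10 (exact permutation p = 0.30, 0.80 and 0.30). At 2 h the same differences were 0.13, -0.22 and 0.34 (exact permutation p = 0.80, 0.343 and 0.457; the lowest of the 9 adjusted p was 0.514).

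**Figure D3:**
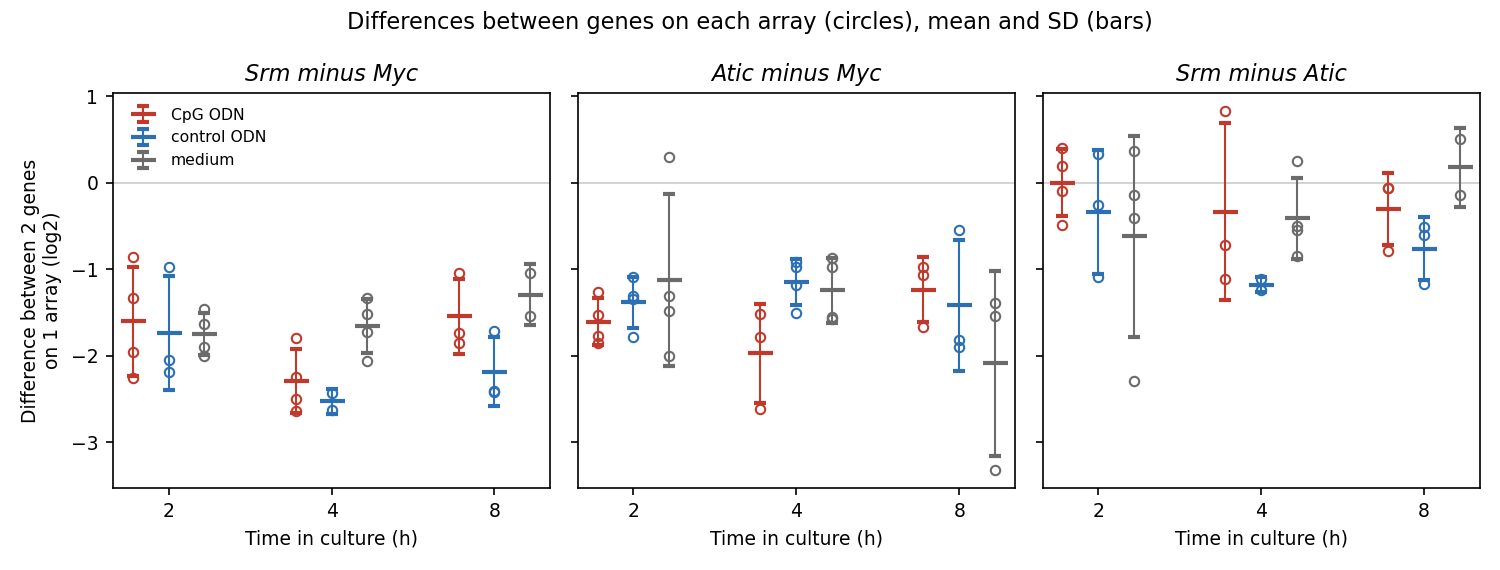
Difference between the log2 ratios of 2 genes on the same array (vertical axis) by hours in culture (horizontal axis) for Srm minus Myc, Atic minus Myc and Srm minus Atic; circles are arrays, bars the mean and SD, colours the treatments. At 4 h Atic minus Myc averages -1.97 with CpG ODN, -1.15 with control ODN and -1.25 in medium, and at 8 h the 3 treatments overlap.

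No difference between control ODN and medium was called for these genes at any time. Of 9 such differences, that of Srm at 4 h was the largest, -0.91 ± 0.43 (2 control ODN arrays against 4, adjusted p = 1), followed by -0.74 ± 0.46 for Srm and 0.68 ± 0.35 for Atic at 8 h (adjusted p = 0.999 for both). The Myc differences lay between -0.22 and 0.01. That of Srm at 4 h was the 1 with an unadjusted p below 0.05. Over all genes limma called 0%, 0% and 0% at 2 h, 4 h and 8 h, with 229, 176 and 379 genes at an unadjusted p below 0.05.

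Ordered by mean, Myc was highest with CpG ODN at 8 h (1.63 ± 0.19, SD, n = 3), 4 h (1.43 ± 0.52, n = 4) and 2 h (0.86 ± 0.34, n = 4), and lowest in medium and control ODN at 8 h (0.06 ± 0.30 and 0.07 ± 0.34, n = 3 each). Except for CpG ODN at 4 h and 2 h, every pair of neighbours in that order differed by less than the larger SD of the pair. For CpG ODN and medium at 2 h the margin was slight, a difference of 0.338 beside an SD of 0.339. Srm was highest with CpG ODN at 8 h (0.08 ± 0.40, n = 3), then at 2 h (-0.75 ± 0.57, n = 4) and 4 h (-0.86 ± 0.82, n = 4), and lowest with control ODN at 4 h (-2.14 ± 0.41, n = 2) and 8 h (-2.12 ± 0.21, n = 3). Atic was highest with CpG ODN at 8 h (0.39 ± 0.51, n = 3) and lowest in medium at 8 h (-2.03 ± 0.86, n = 3), while the other 7 groups had means between -1.35 and -0.61. Over the 9 group means Pearson's r was 0.866 between Myc and Srm, 0.795 between Myc and Atic and 0.693 between Srm and Atic, a description of means that share arrays.

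Other genes of purine synthesis were called at 8 h as well. Of 9 measured list genes 3 rose and 1 fell against control ODN, a share of 44.4% beside 10.0% of all genes. Their median was 0.51 against -0.12 over all genes. Ppat, the committed first step, rose by 0.99 ± 0.17 (adjusted p = 1.84e-04, limma). Adsl, which acts just before Atic and again on the way to AMP, rose by 0.84 ± 0.24 (adjusted p = 0.0201), and Adss, which makes the precursor of AMP, rose by 0.69 ± 0.20 (adjusted p = 0.0285). Adssl1, the muscle form of that enzyme, fell by 1.74 ± 0.24 (adjusted p = 7.20e-06). At 2 h and 4 h 0 of the 9 were called by limma, with 0 and 1 at an unadjusted p below 0.05, and at 4 h their median difference was 0.14.

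One-carbon metabolism supplies the formyl groups that Atic and an earlier enzyme of the pathway add to the purine ring. At 8 h 33.3% of 9 such genes were called against control ODN, beside 10.0% of all genes, and 3 rose and 0 fell. These were Shmt2, mitochondrial serine hydroxymethyltransferase (1.17 ± 0.23, adjusted p = 9.39e-04, limma), Psat1 of serine synthesis (1.16 ± 0.25, adjusted p = 0.00196) and Mthfd2, the mitochondrial folate enzyme (0.96 ± 0.24, adjusted p = 0.00800). Tyms, thymidylate synthase, stood at 0.54 ± 0.29 and was not called. Pyrimidine synthesis had 1 rise among 12 genes, Uck2, a uridine-cytidine kinase (0.69 ± 0.19, adjusted p = 0.0152), while Dhodh was at 0.79 ± 0.34, Rrm2 at 0.40 ± 0.29 and Tk1 at -0.77 ± 0.31. The share called in the pyrimidine list, 8.33%, lay below the 10.0% of all genes, and nothing is read from it. The medians of the 2 lists were 0.31 and 0.07, and 0 genes of either were called by limma at 2 h or 4 h (unadjusted p below 0.05 in 1 at each time for the first list, and in 0 and 1 for the second).

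Of 16 other measured genes of polyamine metabolism 0 rose and 1 fell at 8 h against control ODN by limma (5 with an unadjusted p below 0.05), with a median of -0.26. This share called, 6.25%, lay below the 10.0% of all genes, and nothing is read from it. The gene that fell was Sat1, the acetyltransferase that starts polyamine breakdown, by 0.87 ± 0.25 (adjusted p = 0.0232, limma). Arg2, Apip and Dohh stood at -0.91 ± 0.41, -0.43 ± 0.19 and 0.55 ± 0.22 and were not called. Odc1, the rate-limiting enzyme that makes putrescine, is named here after its value was seen: its difference was -0.46 ± 0.29 on 2 arrays against 2 (adjusted p = 0.388). Against medium 2 of the 16 rose, Dohh (0.66 ± 0.22) and Eif5a (1.29 ± 0.29), the enzyme and the protein of the spermidine-dependent hypusine modification, and 2 fell, Sat1 (-0.89 ± 0.25) and Apip (-0.69 ± 0.19). In that comparison 11.8% of all genes were called. After quantile normalization Sat1 was called against neither control (adjusted p = 0.227 and 0.181), and the calls of Apip (adjusted p = 0.0591) and Dohh (adjusted p = 0.0541) were lost, which left Eif5a, named after its value was seen.

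Genes of the MYC network moved in both directions. At 8 h 1 of 16 rose and 2 fell against control ODN, a share of 18.8% beside 10.0% of all genes. Pim1, a kinase gene induced by cytokines, rose by 1.30 ± 0.33 (adjusted p = 0.0102, limma), and Mxd4 and Mxi1, whose products compete with MYC for MAX, fell by 1.04 ± 0.23 (adjusted p = 0.00243) and 0.62 ± 0.19 (adjusted p = 0.0319, and 0.0548 after quantile normalization). Against medium Mxi1 fell as well (-0.80 ± 0.19, adjusted p = 0.00446), while Mxd4 was not called (-0.50 ± 0.25, adjusted p = 0.217). Mxd1, a competitor of the same kind named after its value was seen, went the other way, with 0.97 ± 0.50 against control ODN (adjusted p = 0.263) and a rise of 2.05 ± 0.50 against medium (adjusted p = 0.00593). Fbxw7, whose product marks MYC for degradation, stood at 0.62 ± 0.22 (adjusted p = 0.0729) and was called against medium (0.79 ± 0.22, adjusted p = 0.0170). At 4 h, when 0.384% of all genes were called, the 1 call of 17 was Pim2, a kinase of the same family (1.19, adjusted p = 0.00670). Max, the partner, had values on 2 CpG ODN arrays and was at 0.59 ± 0.43 at 8 h (adjusted p = 0.482); Pim2 and Max are named after their values were seen. Of 4 NF-kB subunit genes 0 were called against control ODN at 8 h, with Nfkb2 at 0.63 ± 0.29, Relb at 0.31 ± 0.32, Rela at 0.02 ± 0.20 and Rel at -0.29 ± 0.35, and 1 had an unadjusted p below 0.05. Against medium 1 of the 4 rose, Nfkb2 (1.01 ± 0.29, adjusted p = 0.0181). In that comparison 11.8% of all genes were called.

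In the wider list of genes that MYC is known to induce for growth, all calls but 1 came at 8 h. At 2 h 0 of 41 were called by limma (0 with an unadjusted p below 0.05), at 4 h 1 of 44 and at 8 h 24 of 43, all 24 higher. Of all genes 0.0430%, 0.384% and 10.0% were called at these times. The list's median difference from control ODN was 0.03, 0.27 and 0.92 at the 3 times, against -0.02, -0.01 and -0.12 over all genes. The call at 4 h was Ccnd2, cyclin D2, which rose by 1.06 ± 0.22 (adjusted p = 0.0145) and by 2.42 ± 0.26 at 8 h (adjusted p = 5.46e-08). Hspd1, a mitochondrial chaperonin, rose at 8 h by 1.5 ± 0.22 (adjusted p = 1.83e-05). Gar1 and Nop58, of the snoRNA particles that modify ribosomal RNA, rose by 1.18 ± 0.19 and 1.54 ± 0.25 (adjusted p = 4.19e-05 and 7.43e-05). At 4 h the same 3 stood at 0.26, 0.38 and 0.42 and were not called. Against medium 24 of 44 rose at 8 h and 0 fell, a share of 54.5% beside 11.8% of all genes. Without CpG ODN repeat 2 the 8 h count against control ODN was 14. In the window before the start, 10 of the 39 genes with an entry held CACGTG, 5 of the 21 that were called and 5 of the 18 that were not. This was 25.6% of the 39, beside 6.86% of all 27025 genes with an entry. The list was picked for known induction by MYC, and the 27025 genes are not limited to those measured here. Nothing is read from the difference between these shares.

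Of 9 genes that MYC is known to repress, 1 fell at 8 h, Ccng2, an atypical cyclin of resting cells (by 0.98 ± 0.24, adjusted p = 0.00630, limma), and 0 rose, a share of 11.1% beside 10.0% of all genes. Against medium 2 fell, Ccng2 (-1.07 ± 0.24, adjusted p = 0.00239) and Cdkn2c (-1.03 ± 0.30, adjusted p = 0.0226), the latter not after quantile normalization (adjusted p = 0.267). In that comparison 11.8% of all genes were called. Against control ODN the cyclin-dependent kinase inhibitor genes Cdkn2c and Cdkn1a were at -0.83 ± 0.30 and -0.45 ± 0.33, and Ndrg2 at 0.86 ± 0.55. The direction of these lists against each other needs the scale: among all genes the calls at 8 h were 432 higher and 517 lower against control ODN, but 414 and 212 after quantile normalization, and 536 and 579 against medium, but 494 and 290.

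**Figure D4:**
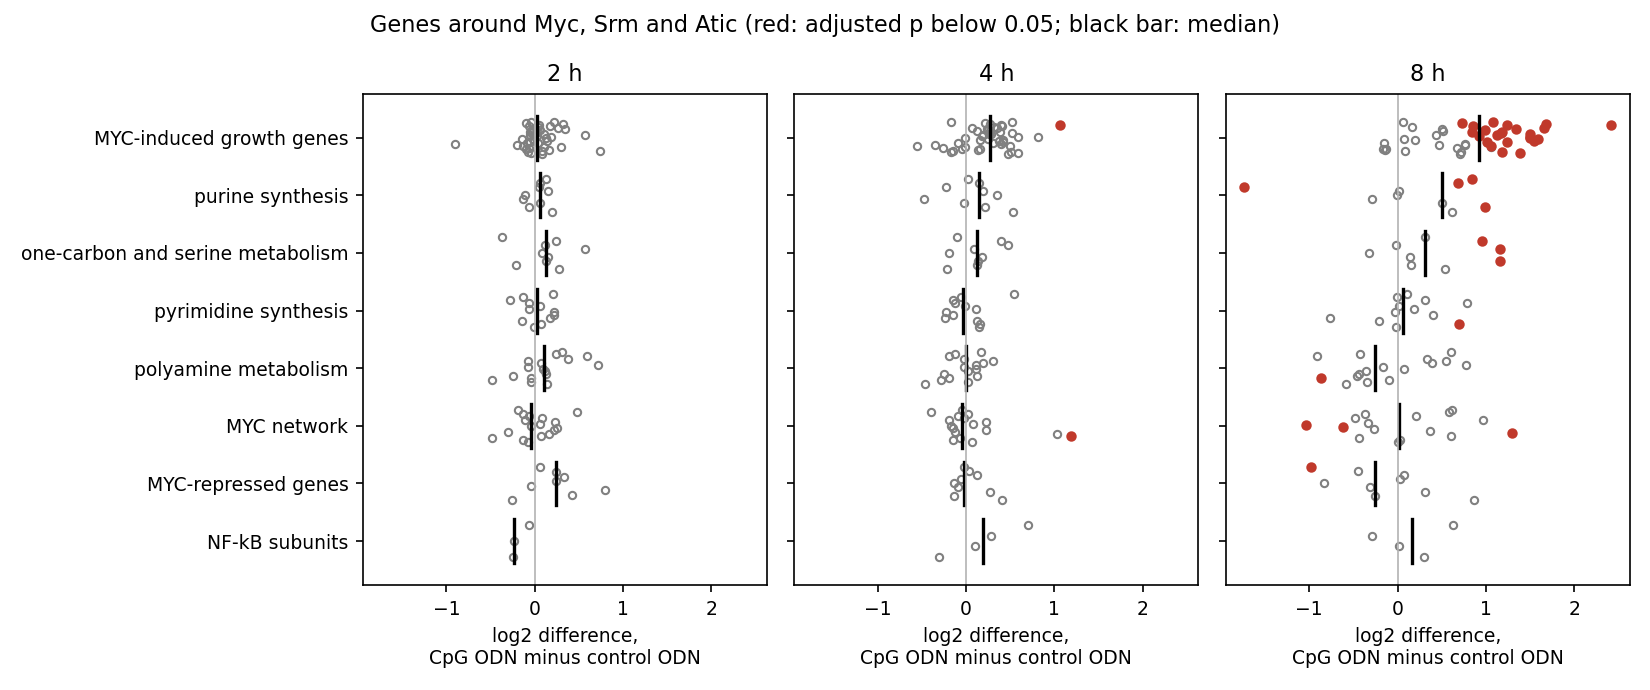
Log2 difference between CpG ODN and control ODN (horizontal axis) for each measured gene of 8 lists (vertical axis) at 2, 4 and 8 h, without Myc, Srm and Atic; red points have an adjusted p below 0.05 and black bars are list medians. The growth list has 0 red points at 2 h, 1 at 4 h and 24 at 8 h, with its median at 0.92 at 8 h.

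The genes whose 9 group means ran most like each of the 3 were listed from 3331 genes with values on at least 2 arrays of every group and an SD of the group means of at least 0.3. For Myc these were Pim1 (Pearson's r = 0.960), Nfkbia (0.955), Pim3 (0.95), Jun (0.937) and Gadd45b (0.928), of which Nfkbia had its highest mean with CpG ODN at 4 h. For Srm they were Dcn (0.918), Snrpd1 (0.918), Rwdd4a (0.916), Gzmb (0.902) and Timm23 (0.901). For Atic they were Atf3 (0.992), Them6 (0.985), Ubqln4 (0.984), Tbl3 (0.973) and Tnfrsf21 (0.971). All 10 genes listed for Srm and Atic, and the other 4 for Myc, had their highest mean with CpG ODN at 8 h. Myc, Srm and Atic were themselves highest in that group, and the genes were picked by likeness to them. The shared peak is thus largely set by the choice, and nothing is read from it. In this order Srm ranked 32 and Atic 117 by likeness to Myc.

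The cell types in the cultures were read from marker genes as the mean ratio over markers measured on all arrays. In bulk RNA, fewer cells of a type and less RNA per cell cannot be told apart. For 8 B cell markers (of 18 written, 16 measured) the mean per array ranged from 2.02 to 2.44 with CpG ODN at 8 h, from 2.86 to 3.29 with control ODN and from 2.70 to 3.40 in medium, and of 16 tested 0 rose and 4 fell against control ODN. For 3 T cell markers (14 of 18 measured) the ranges at 8 h were 1.04 to 1.83, 1.72 to 2.61 and 1.37 to 2.58, with 4 of 14 lower. Of the single markers measured on all arrays, that of neutrophils (9 of 12 measured) ranged from 2.31 to 3.37, 3.19 to 4.20 and 4.01 to 4.75. That of erythroid cells (6 of 11) ranged from 1.35 to 1.83, 1.92 to 2.32 and 1.68 to 2.61. That of dendritic cells (6 of 11) ranged from 1.23 to 1.49, 1.29 to 1.97 and 1.29 to 2.10. The 2 NK cell markers (8 of 11) ranged from 1.98 to 2.76, 2.57 to 3.27 and 2.34 to 3.52. The 8 of monocytes and macrophages (13 of 17) ranged from -0.35 to 0.34, -0.05 to 0.50 and -0.10 to 0.25. Of 5 measured platelet markers (8 written) 0 were on all arrays. At 8 h against control ODN 25% of B cell, 28.6% of T cell and 30.8% of monocyte and macrophage markers were called, beside 10.0% of all genes. The last had 2 higher and 2 lower of 13, NK cell markers 1 higher of 8, and platelet markers 1 higher and 1 lower of 5. Neutrophil and dendritic cell markers had 0 called by limma (1 of 9 and 0 of 5 with an unadjusted p below 0.05). Against medium at 8 h, 18.8% of B cell, 7.14% of T cell and 30.8% of monocyte and macrophage markers were called, beside 11.8% of all genes. The T cell share thus lay below that of all genes. In that comparison 1 of 9 neutrophil markers fell and 1 of 8 NK cell markers rose. At 8 h the B cell markers of every CpG ODN array thus lay below those of every array of either control, in the same arrays in which Myc, Srm and Atic stood higher. They also lay below every control ODN array at 2 h, 2.30 to 2.58 against 2.61 to 3.00, when none of the 3 genes was called. At that time they overlapped medium, at 2.49 to 2.98. They overlapped control ODN at 4 h, 2.40 to 3.08 against 2.33 to 2.69. Such separation was common among single genes. In either direction, 30.1% of genes at 8 h and 4.34% at 2 h had no overlap between CpG ODN and control ODN arrays. Against medium at 8 h the share was 28%. The erythroid marker lay below that of every control ODN array at 8 h. Of the 6 tested erythroid markers 0 were called by limma (0 with an unadjusted p below 0.05) and 2 were above 0. The part of these markers in the differences of the 3 genes was not tested.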

How the data were processed

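The deposited table holds 1 log ratio of Cy5 over Cy3 per probe and array, taken as log2, in 33 arrays. No source used here gives the authors' background correction, spot filter or normalization. Intensities were not used, and the precision is limited by how many arrays there are. Gene names came from GEO's annotation of the platform. Where a gene had several probes, that missing on the fewest arrays was used. Each array was centred on its median, and the means of the 9 groups were estimated in 1 model with limma 3.58.1 (R 4.3.3). The code was checked against lmFit and tested on simulated data. Differences between genes on 1 array were compared by exact permutation (scipy 1.17.1, Python 3.11.15). The rule for named genes was the 3 members, up to 4 other genes per list with the smallest p at 8 h against control ODN, and the 5 genes with the highest r per member. Members, gene lists and tests were chosen with earlier results of these data known. Repeats are independent experiments per the series' design text. The alternatives were no centring, quantile normalization, genes on all arrays, other probe rules, array weights, the groups compared alone, the repeat number as a block, the 4 arrays of early database number (below 70000) left out, and each array left out. The medium arrays in the tests between genes were added after seeing the data.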

Additional observations from a re-analysis of the deposited data

Results flagged for a closer look

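Myc on control ODN repeat 4 at 4 h had a log2 ratio of 0.78, while the other 3 arrays of that group lay between 0.00 and 0.04. Its gap to the nearest array was 0.951 of the group's range, the 1 such case among the 15 groups of 4 arrays checked for the 3 genes, where chance gives about 1 in 20. Without this array the Myc difference between CpG ODN and control ODN at 4 h was 1.41 (adjusted p = 0.00376, limma).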

How the results depend on the processing

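At 8 h the calls of Myc and Atic against both controls, and of Srm against control ODN, held under every alternative run and without each array in turn. The Myc difference from control ODN at 4 h was 1.22 with the 2 groups fitted alone (not called) and 1.01 to 1.41 with 1 array left out. The Myc difference from medium at 4 h was called with array weights (1.07) and with the replicate block within each time (1.00), and was 0.79 to 1.17 with 1 array left out, called in 1 of those fits. The Srm difference from medium at 8 h was 1.24 to 1.63 with 1 array left out. Array weights turned the Atic difference from medium at 2 h to 0.11 and at 4 h to -0.064, and with 1 array left out these were -0.35 to 0.20 and -0.013 to 0.17.

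The count of called genes against control ODN at 4 h was 21 among genes on all arrays, 75 with array weights, 9 with the groups alone and 19 to 39 with 1 array left out. At 8 h it was 626 after quantile normalization, 1489 with the replicate block within each time, 564 with the groups alone and 557 to 887 with 1 array left out (lowest without CpG ODN repeat 2), and for the growth list 14 to 26.

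With medium in place of control ODN, Srm minus Myc was -0.63 at 4 h and -0.25 at 8 h, and Srm minus Atic -0.48 at 8 h. With 1 array left out Atic minus Myc at 8 h was -0.059 to 0.62, Srm minus Atic at 2 h -0.035 to 0.68 and Srm minus Myc at 2 h -0.11 to 0.51.

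The other turns of sign were in differences that were not called. For control ODN minus medium at 2 h, Myc was 0.20 without arrays of early database number and Srm 0.021 and 0.028 with the replicate block within each time and shared across times; with 1 array left out Myc was -0.22 to 0.061, Srm -0.36 to 0.34 and Atic -0.52 to 0.026, and Myc at 8 h -0.16 to 0.18. From 4 h to 8 h with control ODN, Srm was -0.035 with array weights and -0.058 with the block shared across times, and with 1 array left out -0.047 to 0.14, and Myc -0.32 to 0.047. From 2 h to 4 h in medium, Srm was -0.007 as deposited, -0.048 after quantile normalization, -0.031 with array weights and -0.16 when early arrays were dropped, and Atic 0.006 with array weights; with 1 array left out Srm was -0.21 to 0.17, Atic -0.41 to 0.13 and Myc -0.22 to 0.053. From 4 h to 8 h in medium Srm was 0.014 without the early arrays and -0.31 to 0.014 with 1 array left out. From 2 h to 4 h with CpG ODN Atic was 0.019 after quantile normalization and 0.049 with the block shared across times, with ranges of -0.088 to 0.11 for Atic and -0.35 to 0.17 for Srm; with control ODN Atic was -0.086 to 0.065. The growth of the Atic difference from 2 h to 4 h was -0.16 with array weights, -0.001 when the early arrays were dropped and -0.071 to 0.12 with 1 array left out. The cause of these changes was not tested.

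The repeat numbers were not taken as a pairing, since the labels do not tie them to a shared experiment and not every pair of arrays correlated. For 33 pairs with 1 number at 1 time the correlation of deviations from the group means ranged from -0.412 to 0.736 (median 0.361, 21 over 0.1), against a median of -0.124 for 90 pairs with different numbers (27 over 0.1), a hint from the data that some numbers share an experiment. With the replicate block the Myc difference from control ODN at 4 h stayed at 1.22. Its SE was 0.21 with the block within each time and 0.25 without a block. The permutation tests between genes took no account of the repeat number. With the replicate block within each time the growth of the difference from 2 h to 8 h was called for Myc (adjusted p = 0.0296), Srm (0.0159) and Atic (0.0483), and with the block shared across times for Srm (0.0135). The shared block also gave calls for Srm with CpG ODN from 2 h to 8 h (adjusted p = 0.0272) and 4 h to 8 h (0.0210), and lost that of Atic from 4 h to 8 h (0.0533). Genes with missing values, Srm above all, had as few as 2 arrays in a group, which limits what a comparison can show.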
